A study of Mus musculus with 4 samples.

Results

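The cytosolic ribosomal protein genes were read in 4 RNA-seq libraries of mouse Th2 (type 2 helper T) cells, a CD4 lineage known for secreting the cytokines Il4, Il5 and Il13. Members were the protein-coding genes named Rpl or Rps with a number, a stalk name (Rplp0 to Rplp2) or Rpsa, without the Rps6k kinases and the pseudogenes. The rule found 83 genes of 50600 in the tables. Of these, 76 are core subunit genes, 46 of the large (60S) and 30 of the small (40S) subunit. The other 7 are paralogs, the variant copies Rpl3l, Rpl7l1, Rpl10l, Rpl22l1, Rpl36al, Rpl39l and Rps27l. All libraries belong to 1 group, primary Th2 cells of strain C57BL/6NJ with no treatment label and no age given, and the file headers place them at 48 hours of a time course of Th1 and Th2 cells. The labels call them biological replicates 1 to 4 and give each its own biosample but 1 shared donor identifier. Nothing says that they came from separate animals, so p-values measure only the spread between these libraries, which may be technical.

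Ribosomal proteins coat and stabilise the ribosomal RNA of both subunits, and most are present in equal number in every cytosolic ribosome. Their mRNAs are short, abundant in growing cells, and mostly start with a run of pyrimidines, the 5′ terminal oligopyrimidine (TOP) tract, through which mTOR signalling and the RNA-binding protein Larp1 control their translation. A T cell that has been activated enlarges its pool of ribosomes before it divides.

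Rows of the 83 ribosomal protein genes held 0.426% to 0.657% of the counts, and the 19 rows opposite 17 of them held more in sum. All 83 members together took 0.657% of counts in replicate 1 (95% Wilson interval 0.647 to 0.668), 0.507% in replicate 2 (0.497 to 0.516), 0.426% in replicate 3 (0.418 to 0.435) and 0.554% in replicate 4 (0.544 to 0.565). The mean was 0.536% ± 0.0964 (SD, n = 4). Exons of 66 members overlapped no row on the other strand, and exons of 17 did, in 19 pairs. The 19 rows opposite those 17 members took 3.05%, 2.93%, 2.91% and 2.44% of counts in replicates 1 to 4. That was 15.3, 17.7, 19.3 and 14 times the counts of the 17 members themselves. Most of it lay in 3 of the 19 rows, which held 85.6%, 84.7%, 85.7% and 84.8% of the opposite counts. The other 16 rows came to 2.2, 2.71, 2.77 and 2.13 times the counts of the members. Counts of the whole table also lay mostly in rows with an overlap. Such rows are 16.2% of all rows, and all genes without an overlap held 7.53%, 6.88%, 5.48% and 6.67% of counts. The counts were made with strand setting 1, per the file headers, and the sources used here do not say which strand the library kit marks. A count in a row is therefore the number of read pairs assigned to that gene's strand, and it cannot be read as the level of the gene's own mRNA.

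The overlaps that reach into coding sequence carry the strongest contrast, so coding exons of 3 such members are shown here with the bases that both rows count in capitals. They belong to Rpl23a, Rpl35 and the paralog Rpl22l1. The sequences are coding exons of GENCODE M21 transcripts (GRCm38, the build of the tables, mm10), 5′ to 3′ on the member's strand. The Rpl23a exon lies at chr11:78181417-78181593 on the minus strand. The Rpl35 exon lies at chr2:39001619-39001765 on the minus strand, and the Rpl22l1 exon at chr3:28807187-28807328 on the plus strand.
Rpl23a exon 3: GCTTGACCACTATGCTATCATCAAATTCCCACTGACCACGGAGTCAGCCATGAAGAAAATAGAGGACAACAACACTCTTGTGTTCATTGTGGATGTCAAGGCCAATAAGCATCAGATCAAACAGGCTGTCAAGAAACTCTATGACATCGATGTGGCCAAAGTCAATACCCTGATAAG
Rpl35 exon 4: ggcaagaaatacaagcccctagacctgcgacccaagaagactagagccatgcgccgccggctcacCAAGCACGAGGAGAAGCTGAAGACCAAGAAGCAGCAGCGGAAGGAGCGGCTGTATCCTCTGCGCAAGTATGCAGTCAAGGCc
Rpl22l1 exon 4: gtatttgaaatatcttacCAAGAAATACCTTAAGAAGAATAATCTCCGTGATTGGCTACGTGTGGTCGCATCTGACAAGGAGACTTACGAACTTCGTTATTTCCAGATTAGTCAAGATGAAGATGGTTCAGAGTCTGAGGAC

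Rpl23a, a 60S protein at the exit of the peptide tunnel, lies on chromosome 11 (78180932 to 78183584, minus strand) and had 491, 362, 320 and 324 counts. Tlcd1, which encodes a membrane protein (78176711 to 78181909, plus strand), shares 506 bp with it, 259 of them coding, and had 24225, 21054, 22364 and 14537 counts. Both rows of this pair were high, and Tlcd1 stood 44.9 to 69.9 times above Rpl23a.

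Rpl35, another 60S protein near the tunnel exit, lies on chromosome 2 (39001580 to 39005624, minus strand) and had 88, 69, 60 and 61 counts. Wdr38, a WD-repeat gene (38997476 to 39006168, plus strand), shares 821 bp with it, 105 of them coding, and had 10164, 8747, 9434 and 6930 counts. A second row opposite Rpl35, Arpc5l, which encodes an actin-nucleation subunit, shares 62 bp and had 35, 31, 34 and 27 counts. The 2 rows opposite the same gene therefore lay on either side of it. Rpl22l1, the paralog of Rpl22, lies on chromosome 3 (28805436 to 28807424, plus strand) and had 6, 6, 6 and 5 counts. The antisense RNA gene Gm33051 (28807205 to 28813985, minus strand) shares 159 bp with it, 124 of them coding and 58.0% of its own exon length, and had 2083, 2093, 1785 and 1227 counts. Rpl22l1 was the lowest of the 17 members with an overlap, at 2.10 ± 0.103 TPM (counts per exon length, scaled to the same sum in every library; SD, n = 4).

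Rpl15, Rpl32, Rpl5, Rpl28 and Rpl31, all of the 60S subunit, had an opposite row that was higher in every library, with only noncoding exon bases shared. Rpl15 had 88, 98, 92 and 65 counts, and Nkiras1, an inhibitor of NF-kappa-B signalling that shares 105 bp with it, had 3619, 3251, 3407 and 2166. Rpl32 had 272, 181, 170 and 196 counts, and Cand2, a regulator of cullin ubiquitin ligases that shares 53 bp with it, had 1982, 2007, 1943 and 1699. Neither short overlap kept the opposite row from standing at least 7.29 times above its member in counts. Rpl5, which with Rpl11 and the 5S RNA forms the particle that binds Mdm2, had 182, 150, 124 and 140 counts. Fam69a, which shares 953 bp with it, had 571, 573, 464 and 342. This was the longest overlap of the 19, yet the contrast was 2.44 to 3.82 times. Rpl28 had 191, 119, 131 and 119 counts, and Ube2s, a ubiquitin-conjugating enzyme sharing 183 bp, had 422, 411, 454 and 344. Rpl31 had 65, 48, 45 and 43 counts, and Tbc1d8, sharing 420 bp, had 450, 446, 408 and 259.

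The 40S gene Rps25 showed the reverse order. Rps25 lies on chromosome 9 (44407139 to 44410427, plus strand) and had 1379, 1082, 1115 and 870 counts, the most of any member. Ccdc84, sharing 206 bp, had 427, 334, 371 and 289, and the vesicle-tethering gene Trappc4, sharing 462 bp, had 127, 113, 106 and 97. Rps18 had 428, 327, 325 and 290 counts against 13, 10, 11 and 5 in Vps52, and Rpl18 had 466, 426, 459 and 370 against 91, 84, 81 and 71 in the sphingosine kinase gene Sphk2. In these pairs the member was the higher row in every library. Rps27a, made as a fusion of ubiquitin with a 40S protein, had 83, 81, 45 and 63 counts, and Clhc1 opposite it had 119, 85, 115 and 58, so the order changed between libraries.

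In all, the opposite row was higher than the member in all 4 libraries in 9 of 19 pairs (47.4%), and the member was higher in all 4 in another 9. Among all 5464 pairs of a protein-coding gene with a row on the other strand, the opposite row was higher in every library in 46.1% and lower in every library in 27.3%. The share of ribosomal protein pairs with the opposite row on top was close to that background. The share with the member on top was higher, at 47.4% against 27.3%. The background pairs were not limited to genes with counts, and the difference was not tested. The median over the 19 pairs of the log2 ratio of opposite to member counts was 0.52, 0.07, 1.34 and -0.12, with a mean of 0.45 ± 0.651 (SD, n = 4). With as many pairs above as below, this median is the value of a single pair, Rps27a with Clhc1, in each library. It was positive in 3 of 4 libraries (exact two-sided sign-flip p = 0.375). The smallest p that this test can give with 4 libraries is 0.13, or 2 of 16 sign patterns. Per exon kilobase the mean turned to -0.105 (exact p = 0.5), so the median pair showed no direction that held across scales. As a mean over pairs the log2 ratio of counts was 0.615, and over pairs whose opposite row had at least 10 counts the median was 1.75, each positive in 4 of 4 libraries (exact p = 0.13).

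**Figure D1:**
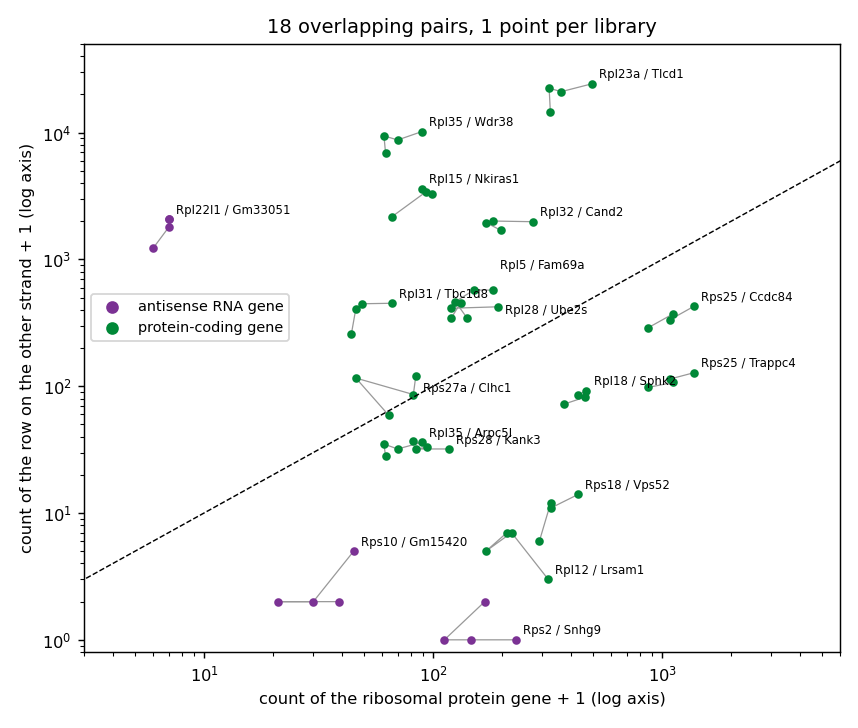
Counts + 1 of each ribosomal protein gene (horizontal, log axis) and of the row on the other strand (vertical, log axis) in 18 of the 19 pairs, with 1 point per library, grey lines joining the libraries of a pair in no meaningful order, and a dashed line of equal counts. Tlcd1, Wdr38 and Gm33051 lie far above the line, while both rows opposite Rps25 lie below it.

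Away from such overlaps the levels of members were still ordered, and high among genes without an overlap. A level here and below is the TPM on the counted strand, and lack of an overlap does not make it the level of the gene's own mRNA. Among the 60 core members without an overlap the median was 38.4 TPM, from 2.07 to 361, and 59 of 60 had at least 1 TPM in each library. Among the 16963 protein-coding genes without an overlap, these members had a median percentile of 99.4, and 57 of 60 stood at or above the 95th. The 3 below it were Rpl24 (86.7), Rpl13a (90.6) and Rpl34 (94.3). Over all members, 79 of 83 had at least 1 TPM in each library, and 2 had no count in any. Among all 21764 protein-coding genes, 4742 had at least 1 TPM in each library and 9293 had no count in any. Among the 16963 without an overlap these numbers were 2497 and 8423.

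**Figure D2:**
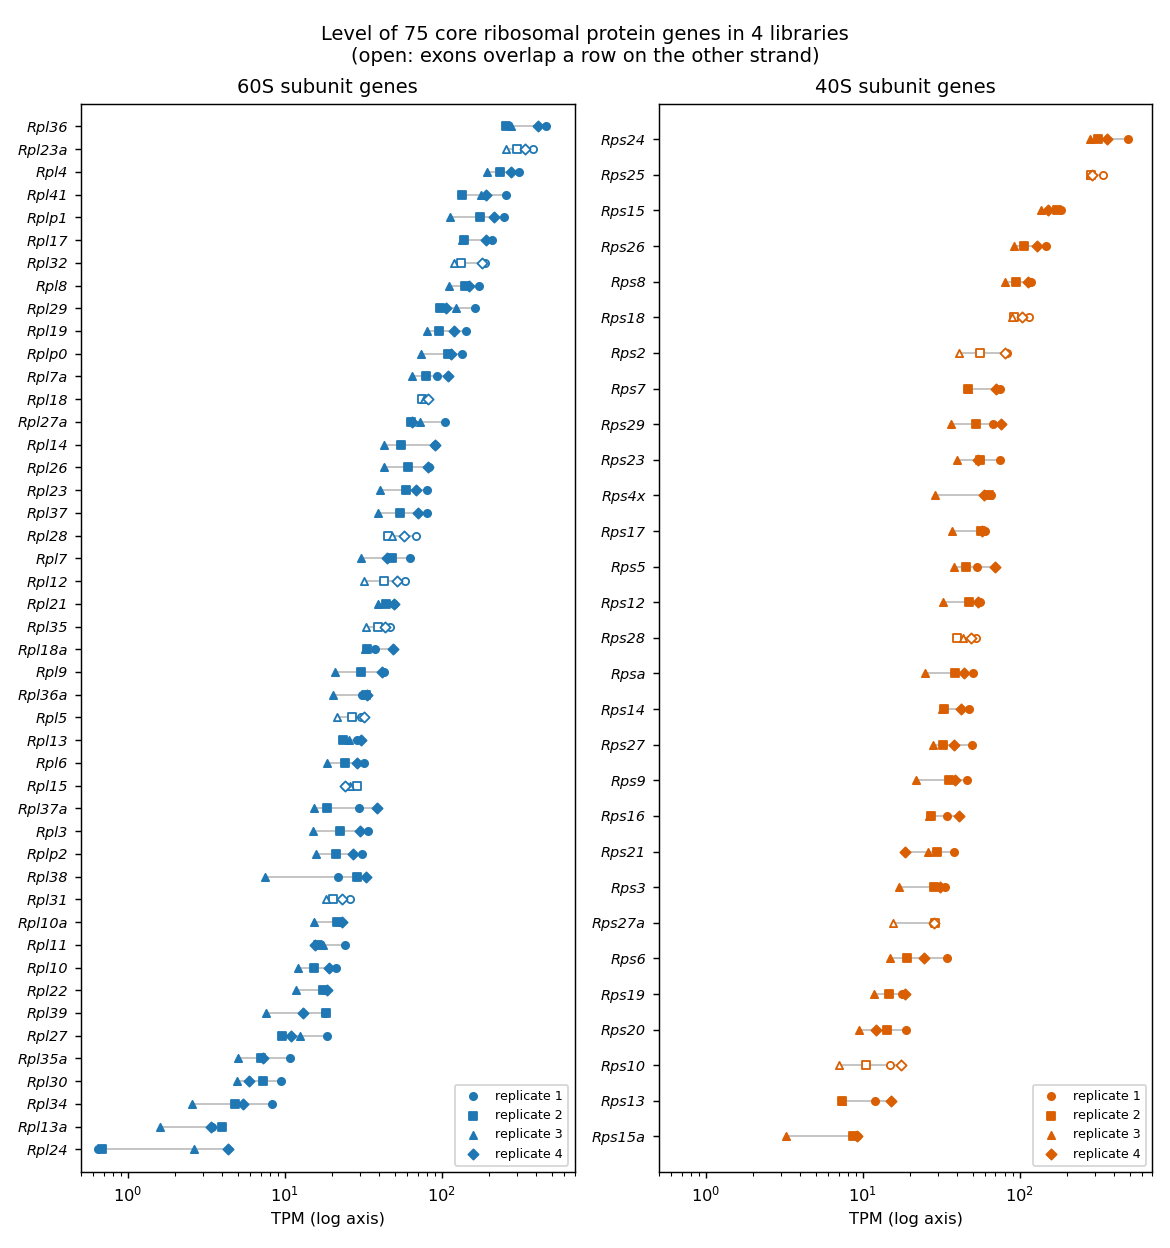
TPM (log axis) of 75 of the 76 core ribosomal protein genes in each of 4 libraries, 60S genes on the left and 40S genes on the right, ordered by mean level, with a marker shape per replicate and open markers for genes whose exons overlap a row on the other strand. Levels run from Rpl24 at 2.07 TPM to Rps24 at 361 TPM, and the order of genes is similar in the 4 libraries.

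The highest core member without an overlap was Rps24, a 40S protein mutated in Diamond-Blackfan anaemia, with 490, 313, 278 and 361 TPM in replicates 1 to 4 (361 ± 92.6; SD, n = 4). Rpl36 of the 60S subunit had 460, 256, 274 and 409 TPM (350 ± 100), so these first 2 lay within each other's spread. Rpl4, whose extended loop lines the peptide tunnel, had 311, 235, 195 and 274 TPM (254 ± 50.3) and 946, 670, 575 and 620 counts. Rpl41, which encodes a very short peptide of the ribosome, had 255, 134, 177 and 190 TPM (189 ± 50). Rplp1 had 250, 175, 112 and 215 TPM (188 ± 59.5), and Rpl17 had 208, 138, 134 and 192 (168 ± 37.6). Rpl41, Rplp1 and Rpl17 did not differ beyond their spread. Replicate 1 was the highest library for all 6 genes. It was also the highest for 42.5% of all genes without an overlap and with a mean of at least 10 counts.

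Rplp0, Rplp1 and Rplp2 form the stalk of the 60S subunit, which recruits elongation factors. Rplp0 had 135, 110, 73.7 and 115 TPM (109 ± 25.7; SD, n = 4), and Rplp2 had 30.9, 21.1, 15.7 and 27.0 TPM (23.7 ± 6.67). In each library the order was Rplp1, then Rplp0, then Rplp2.

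At the other end, Rpl24, a 60S protein that bridges the subunits, had 1, 1, 4 and 5 counts (2.07 ± 1.76 TPM; SD, n = 4). In replicates 1 and 2 this was below 3 counts, the most that a count of 0 allows, so no level above the floor was detectable there. Rpl24 shares 484 bp with Gm28037 on its own strand, and Rpl13a shares 621 bp with Gm45713, and a read pair in such bases is assigned to neither row under the options in the file headers. Both of those rows had 0 counts in all 4 libraries. Rpl13a, known for its part in translational silencing outside the ribosome, had 11, 12, 5 and 8 counts (3.10 ± 1.03 TPM). Rpl34 had 33, 18, 10 and 16 counts (5.25 ± 2.34 TPM), Rpl30 had 43, 31, 22 and 20 (6.87 ± 1.94 TPM), and Rpl35a had 57, 35, 26 and 29 (7.50 ± 2.35 TPM). Rps15a had 87, 77, 30 and 65 counts (7.57 ± 2.89 TPM). The last 3 of these genes have long rows: that of Rps15a is 6270 bp with 390 coding bp, that of Rpl35a 3526 bp with 330 and that of Rpl30 3020 bp with 345.

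TPM divides counts by row length, so TPM falls with length wherever counts do not rise with it. A negative correlation of length with TPM is then built in. The rows of the 60 core members without an overlap had a median of 1690 bp (404 to 6270), while the median coding sequence was 476 bp. Across these 60 genes, which share the same libraries, exon length correlated with mean TPM at r = -0.525 (Spearman rho = -0.538) and with mean count at r = 0.0245 (rho = -0.0015). The shortest row, Rpl36 at 404 bp, was also the second in TPM. Of 50-base windows of the transcripts of the 60 genes, a median of 20.9% (0 to 81.1) also occurred in transcripts of another gene. The highest shares were 81.1% for Rpl36, 60% for Rplp1, 57.4% for Rpl19 and 49.2% for Rpl24, so levels of these genes are uncertain. The 3 genes that share 50% or more had a median of 188 TPM, and the other 57 had 37.0 TPM. Spearman rho of shared percent with mean TPM was 0.292. The 284 rows of ribosomal protein pseudogenes took few counts, 127, 112, 111 and 107 in all. Rpl14-ps1 was the highest of them at 47, 29, 25 and 29 counts.

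The 60S and 40S lists differed little. A list score is the mean over genes of log2(TPM + 1). For core members without an overlap the score of 37 60S genes minus that of 23 40S genes was -0.18, -0.21, -0.12 and -0.14, with a mean of -0.16 ± 0.0378 (SD, n = 4), negative in 4 of 4 libraries (exact two-sided sign-flip p = 0.13). Mean scores were 5.23 and 5.39. Median levels were 34.0 TPM for the 60S and 39.4 TPM for the 40S genes, while single genes ran from 2.07 to 350 TPM in the 60S and from 7.57 to 361 TPM in the 40S subunit.

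Ribosomal protein genes stood above the nuclear genes for mitochondrial ribosomal proteins, a family of similar size that builds the ribosome of mitochondria. The score of 66 members without an overlap exceeded that of 52 mitochondrial genes by 3.26, 3.2, 3.07 and 3.32, with a mean of 3.21 ± 0.109 (SD, n = 4; exact two-sided sign-flip p = 0.13). The mean scores were 4.96 and 1.75. The median mitochondrial ribosomal protein gene without an overlap had 2.56 TPM, with no filter on level. All 16963 protein-coding genes without an overlap had a median of 0.0192 TPM. The 3600 of them that averaged at least 1 TPM had a median of 2.68 TPM.

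Members with an overlap scored above members without one, by 0.52, 0.62, 0.75 and 0.59 on the log2 scale, with a mean of 0.62 ± 0.0961 (SD, n = 4; exact two-sided sign-flip p = 0.13). Their median levels were 58.2, 42.9, 37.7 and 51.6 TPM in replicates 1 to 4, against 40.5, 32.6, 25.8 and 39.7 TPM for the 66 without. The overlap list holds 1 paralog, Rpl22l1, and the other list holds Rpl3l, Rpl10l and Rpl39l, which were at or near 0. With genes of at least 1 TPM on average the difference was 0.382 (exact p = 0.13), and its direction held in all 4 libraries. The members with an overlap also varied less between libraries, with a median coefficient of variation of 16.7% against 26.2%. Other genes were split the same way: 2.49% of those with an overlap and 8.75% of those without passed edgeR's test of variation between libraries at an unadjusted p under 0.05. The tested members with an overlap also had more counts, a median of 144 against 108. Other tested genes differed more in counts, with a median of 118 with an overlap and 28.8 without. With only genes without an overlap in the fit, 4.32% of these other genes passed unadjusted. The part of counts and of the joint fit in this split was not tested.

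Each paralog had a mean below the median core member (43.0 TPM). Rps27l, a p53-induced relative of Rps27, had 20, 16, 7 and 11 counts (11.9 ± 4.43 TPM; SD, n = 4). Rpl7l1 had 40, 30, 17 and 30 counts (8.22 ± 2.71 TPM), and Rpl36al had 18, 15, 9 and 12 (7.25 ± 1.87 TPM). These 3 lay below the median core member in every library. Among protein-coding genes without an overlap they were still high, at percentiles 97.6, 96.4 and 95.9. Rpl3l, a muscle relative of Rpl3, had 0, 0, 0 and 1 counts. Rpl10l and Rpl39l, known from testis, had none in any library, which allows up to 3 counts each. Rps4l is not protein-coding in the annotation and lies outside the rule, with 0, 1, 0 and 0 counts. Among core proteins whose names the rule leaves out, Rps3a1 had 155, 135, 88 and 130 counts (95.4 ± 24.3 TPM), and Fau, a 40S protein fused to a ubiquitin-like one, had 157, 59, 72 and 67 (77.8 ± 34.2 TPM). Both means were above the median core member. The 40S-bound scaffold Rack1 had 198, 175, 83 and 118 (20.3 ± 6.53 TPM).

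Members tended to move together between libraries. Of 61 members without an overlap and with a mean of at least 10 counts, 53 (86.9%) had their lowest TPM in replicate 3, where the background over all 2594 such genes was 59.8%. Of the same 61, 45 (73.8%) were highest in replicate 1, against a background of 42.5%. This pattern was chosen after its values were seen. Relative to each gene's own mean, the median log2 level of 58 core members without an overlap was 0.31, -0.13, -0.48 and 0.16 in replicates 1 to 4, and that of 16 core members with an overlap was 0.21, -0.10, -0.31 and 0.10. Both lists ran the same way, and the list with an overlap over a smaller range.

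**Figure D3:**
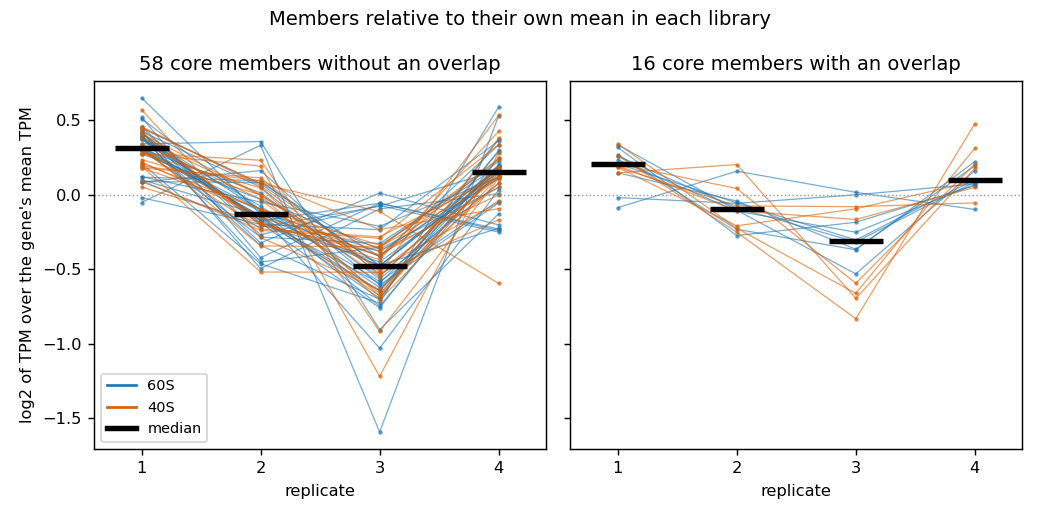
Log2 of TPM over the gene's own mean TPM in each library for 58 core members without an overlap (left) and 16 with one (right), with 1 line per gene (60S blue, 40S orange), lines that carry no order of replicates, and black bars for medians. The medians are highest in replicate 1 (0.31 and 0.21) and lowest in replicate 3 (-0.48 and -0.31).

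Other measures of the libraries are given beside this. The share of counts in all genes without an overlap was 7.53%, 6.88%, 5.48% and 6.67%, lowest in replicate 3 and highest in replicate 1. As a percent of those counts alone, the 66 members held 6.08%, 4.95%, 5.02% and 5.71%, so replicate 2 was then the lowest, next to replicate 3. The rows CT010467.1 and Gm42418, which hold ribosomal RNA reads, took 4.54%, 3.25%, 5.02% and 15.9% of counts, highest in replicate 4, and did not follow the order of the members. The part of these measures in the pattern was not tested, and fewer cells of a type and less RNA per cell cannot be told apart in bulk libraries.

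**Figure D4:**
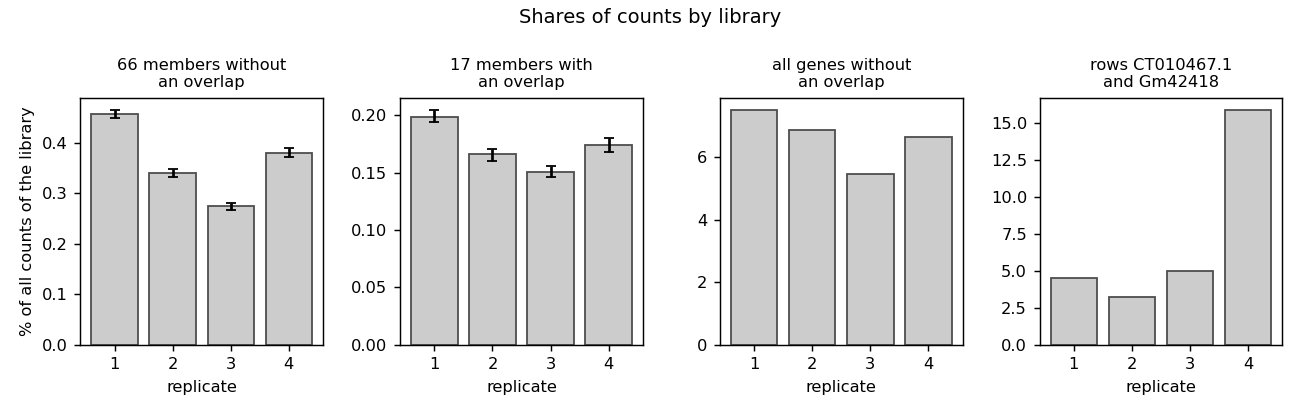
Percent of all counts in each of 4 libraries for 66 members without an overlap, 17 members with one, all genes without an overlap, and the ribosomal RNA rows, each panel on its own axis from 0, with 95% Wilson intervals (counting error only) on the members' bars. The first 3 panels are lowest in replicate 3 (0.275%, 0.151% and 5.48%), and the last is highest in replicate 4 (15.9%).

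Each member was also tested against a constant level over the libraries, without removing the shared movement. In edgeR's goodness-of-fit test of an intercept-only model, 0 of 73 tested members passed an adjusted p of 0.05, against 23 of 5064 genes (0.454%). At an unadjusted p under 0.05, 27 of 73 members (37.0%) passed, against 260 of 5064 genes (5.13%). Without replicate 3, 11 of 77 tested members (14.3%) passed unadjusted, against 227 of 5586 genes (4.06%). With a common dispersion in place of one that follows abundance, 2 members passed the adjusted threshold, against 32 of 5064 genes (0.632%). With only genes without an overlap in the fit, 1 of 58 members (1.72%) passed unadjusted, against 4.24% of the genes tested. The tested members without an overlap had a median of 108 counts, other such genes 28.8. Rpl14, a 60S protein, had the lowest adjusted p in edgeR, 0.0776, with 226, 129, 104 and 168 counts. It was also the 1 member that DESeq2 marked as a dispersion outlier, against 28 of 5064 genes (0.553%), and it is named here after its values were seen. The largest SD of log2(TPM + 1) among members of at least 5 TPM belonged to Rpl38, needed for translation of some Hox mRNAs, with 18, 22, 6 and 20 counts (SD 0.898). Rps15a (SD 0.618) and Rps27l (SD 0.586) followed. Replicate 3 was the lowest library for all 3, and for 59.8% of all genes without an overlap and with a mean of at least 10 counts.

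The start sites of members were searched for the TOP tract, written as C at the annotated start followed by at least 4 letters that are each C or T, on the gene's own strand. Windows came from RefSeq (GRCm38.p6), where 63 of 83 members had an entry. The tract lay exactly at the annotated start in 13 of 63 members (20.6%) and in 813 of 27025 genes (3.01%). Within 5 bases of the start it lay in 29 of 63 members (46.0%) and in 21.2% of genes. The windows of the members described above that hold it exactly at the start are shown with the pyrimidine run in capitals, from 25 bases before the start to 14 after it. They lie at chr14:18270972-18271011 (Rpl15, minus strand), chr7:4792940-4792979 (Rpl28, plus), chr2:39005117-39005156 (Rpl35, minus), chr16:33056457-33056496 (Rpl35a, plus), chr11:114668555-114668594 (Rpl38, plus), chr7:118116133-118116172 (Rps15a, minus), chr9:120571492-120571531 (Rpl14, plus), chr7:141447626-141447665 (Rplp2, plus) and chr17:33955651-33955690 (Rps18, minus).
Rpl15: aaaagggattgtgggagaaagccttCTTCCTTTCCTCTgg
Rpl28: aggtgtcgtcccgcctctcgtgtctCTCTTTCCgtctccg
Rpl35: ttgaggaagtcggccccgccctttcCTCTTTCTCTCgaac
Rpl35a: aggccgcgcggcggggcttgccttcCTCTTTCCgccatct
Rpl38: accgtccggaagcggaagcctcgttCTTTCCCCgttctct
Rps15a: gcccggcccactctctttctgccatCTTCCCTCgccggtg
Rpl14: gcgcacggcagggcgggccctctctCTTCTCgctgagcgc
Rplp2: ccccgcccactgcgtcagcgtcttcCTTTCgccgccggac
Rps18: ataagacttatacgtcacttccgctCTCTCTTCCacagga
These 9 genes ran from Rpl35a at 7.50 TPM and Rps15a at 7.57 TPM to Rps18 at 99.5 TPM. Core members without an overlap and with a tract within 5 bases of the start (18 genes) had median levels of 42.4, 31.0, 23.9 and 35.5 TPM in replicates 1 to 4, and the 26 without had 33.8, 29.4, 22.9 and 39.5 TPM. The groups were thus on no fixed side of each other.

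The wider programme around ribosome making was read from lists of related genes. All 16 of the translation genes with TOP mRNAs had at least 1 TPM in each library, against 4742 of all 21764 protein-coding genes. The highest of the 16 came near the highest ribosomal protein genes. Npm1, a nucleolar chaperone, had 1586, 1264, 814 and 1125 counts (327 ± 83.6 TPM; SD, n = 4). Elongation factor gene Eef1a1 had 1195, 869, 661 and 928 (268 ± 69.5 TPM), and Eef2 had 580, 448, 305 and 476 (99.9 ± 28.4 TPM). In TPM all 3 were lowest in replicate 3 (208, 180 and 62.4 for Npm1, Eef1a1 and Eef2). So were 59.8% of all genes without an overlap and with a mean of at least 10 counts. Npm1 was highest in replicate 1 (393), and Eef1a1 and Eef2 in replicate 4 (330 and 127). Of 14 ribosome assembly genes, 12 had at least 1 TPM in each library, led by Npm1, the nucleolar protein gene Ncl (1697, 1432, 971 and 1450 counts) and the snoRNP gene Nop56 (107, 82, 79 and 85 counts). Of 8 genes that host small nucleolar RNAs in their introns, 4 did. The highest were Gas5 (53, 51, 27 and 42 counts), Snhg6 (14, 8, 10 and 10 counts, sharing 127 bp with Mcmdc2) and Snhg5 (11, 8, 5 and 14 counts). Of 12 genes for the control of ribosomal protein mRNA translation, 9 did. Rps6kb2, an S6 kinase gene, had 40, 30, 38 and 70 counts and shares 39 bp with Ptprcap. Larp1 had 146, 89, 96 and 104 counts, and the mTOR complex gene Mlst8, which shares 997 bp with Bricd5, had 32, 38, 15 and 19. Rps6kb2 had 10.8, 8.64, 10.6 and 25.4 TPM, so its mean of 13.9 TPM rests on replicate 4.

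The T cell label was read from markers on the same strand scale. Of 9 T cell and Th2 markers, 7 had at least 1 TPM in each library, against 4742 of all 21764 protein-coding genes. Among the 7 were Cd3d (27, 17, 15 and 19 counts), Cd4 (72, 59, 54 and 68), Il4 (38, 27, 37 and 24) and Il13 (26, 17, 10 and 18). Il5, which shares 417 bp with Gm12214, had 0 in all 4. Of 11 markers of other cells, 7 had 0 counts in all libraries, and so did 8423 of 16963 protein-coding genes without an overlap. The B cell gene Cd79a had 14, 8, 4 and 7 counts. Its mean of 4.09 TPM was above those of Cd3e (2.33) and Il5 (0.0). It was below those of the other T cell and Th2 markers, the nearest being Cd3g (4.29).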

How the data were processed

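Paired-end reads came from 4 libraries. Total RNA is the labelled assay, though the library protocol linked in the labels is for polyadenylated RNA. The deposited values are raw whole-number counts of read pairs per row, which the authors made with featureCounts 1.4.6-p4, per the file headers. Its options were strand setting 1, both ends mapped, and exons grouped by gene in GENCODE M13 (mm10). The headers name STAR output, whose release is not given in the sources used here. Besides counts the tables also hold each row's deposited exon length (other, in bp). GENCODE M21 supplied symbols, types and coding exons, and 224 rows had no match. Gene coordinates are those of the tables.

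Totals were 2271993, 2112190, 2204423 and 1785970 counts. For a row at 0 the floor is 3 counts, equal to 1.32 to 1.68 CPM. Floors and Wilson intervals reflect counting error alone, as no molecular identifiers are named and pairs may not be independent molecules. Rows overlap when they share at least 1 exon base on opposite strands, as 16.2% of rows do.

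TPM was computed from counts and exon length. List scores average log2(TPM + 1), and were compared in an exact sign-flip permutation test (two-sided, over libraries). Pair ratios used a prior count of 0.5. For variation between libraries, an intercept-only negative binomial model was fitted in edgeR 4.0.16 under R 4.3.3 (limma 3.58.1) to all genes passing filterByExpr, with trended dispersion, TMM factors, a goodness-of-fit test and Benjamini-Hochberg adjustment at 0.05. The procedure was first run on simulated counts, with genes drawn independently at a fixed dispersion. That setting holds no shared movement of genes between libraries, so it cannot show how the test behaves under such movement. Alternatives used size factors and outlier flags of DESeq2 1.42.0. Other steps ran in Python 3.11.15 with SciPy 1.17.1, pandas 2.3.3, Matplotlib 3.10.9 and numpy 2.4.6.

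Named genes are members whose opposite rows hold a mean of at least 100 counts, the 6 highest and 6 lowest detected core members without an overlap, the paralogs, the core proteins outside the name rule, the 3 members of at least 5 TPM with the largest SD, and the 3 highest genes of each related list. Rps18, Rpl18, Rps27a, Arpc5l, Rplp0, Rplp2, Rpl14, Rpl14-ps1 and the markers named were added after their values were seen. The members and lists were chosen with earlier results of these data known. Alternatives were other pseudocounts, units, summaries, filters, overlap definitions, dispersions and denominators, and each replicate left out. Counts per coding kilobase, and TPM outside the ribosomal RNA rows, were added after the data were seen. Signal tracks were not used here, and some values are left out of the text and the plots of single genes.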

Additional observations from a re-analysis of the deposited data

Results flagged for a closer look

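Of 46 values tested over 4 libraries, 3 had 1 library far from the others, by a gap above Dixon's 95% critical value as a share of the whole range. Chance flags about 1 in 20 such groups. Rps15a stood at 3.25 TPM in replicate 3, against 8.65 to 9.20 in the others, with the gap at 0.907 of the range. Rps25 stood at 339 TPM in replicate 1, against 282 to 287 in the others, with the gap at 0.906 of the range. Rpl3l stood at 0.54 TPM in replicate 4, which was 1 count, and at 0 in the others.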

How the results depend on the processing

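The differences between ribosomal and mitochondrial ribosomal protein genes (3.01 to 3.67 over the other settings), between 60S and 40S genes (-0.222 to -0.145) and between members with and without an overlap (0.382 to 0.897) kept their direction under every alternative run, and with 3 libraries the smallest exact p is 0.25. Counts per coding kilobase gave 3.52, -0.222 and 0.897. The ratio of opposite to member counts turned to -0.105 per exon kilobase (exact p = 0.5). It was 0.156 to 0.643 with each replicate left out, lowest without replicate 3, and 0.977 with at least 50 shared bases, 1.75 with opposite rows of at least 10 counts and 0.615 as a mean over pairs (exact p = 0.13 for each). The share of counts in members, 0.536% of all counts, was 5.44% of the counts of genes without an overlap, where the members counted are those without an overlap, 0.364% of all counts. The number of members called variable was 0 under DESeq2 size factors, other gene filters and each replicate left out, 2 with a common dispersion in edgeR (0.632% of all genes) and 1 as DESeq2 dispersion outliers. The members at an unadjusted p under 0.05 in edgeR went from 27 of 73 (5.13% of all genes) to 11 of 77 without replicate 3 (4.06% of all genes). They ranged from 19 to 27 without each of the others, where 4.78% to 4.87% of all genes passed. Of 145 alternatives for single named genes, 1 moved by more than its SD, Rpl22l1 at 2.2 TPM outside the ribosomal RNA rows. No paired analysis was possible because the libraries form 1 group. At this depth the levels of Rpl24 and Rpl13a rest on 1 to 12 counts per library.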
